A study of Mus musculus with 12 samples.

Results

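Untreated GADD34ΔC/ΔC cells, written ΔC here, were compared with untreated wild-type cells across the autosomal genes. The cells were embryonic mouse fibroblasts (MEFs), which make connective tissue and are cultured from embryos. The study measured RNA of both genotypes, untreated or lipofected with poly(I:C), on Agilent single-colour arrays. The 6 untreated arrays of the 12 in the series, 3 per genotype, carry this comparison, and the design text describes separate experiments. Of 15445 genes tested, 14916 lay on autosomes. Both groups were grown in DMEM with fetal bovine serum and beta-mercaptoethanol, and neither received lipid or poly(I:C). The wild-type group carries no stated allele, and the ΔC group is homozygous for an allele named after a shortened Ppp1r15a product. The labels do not say how many embryos or lines stood behind each genotype, nor their age, sex, strain or passage, so that genotype and cell line of origin cannot be told apart. The p-values measure the spread among repeats within a group of 3 arrays. This spread was pooled over all 12 arrays, treated ones included, and drawn toward that of other genes.

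Ppp1r15a encodes GADD34, a stress-induced protein whose carboxy-terminal part holds protein phosphatase 1 and brings it to eIF2α, the initiation factor that stress kinases phosphorylate to slow protein synthesis. Cells without this activity keep eIF2α phosphorylated for longer after stress. Fibroblasts are also marked by where in the body they came from. They retain in culture the pattern of HOX and other positional transcription factors of their tissue of origin, and they differ by site in the matrix and the signals they make.

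A level below is the log2 of a probe's processed intensity minus the 75th percentile of its array. A difference is the mean ΔC level minus the mean wild-type level, ± its standard error from limma with n = 3 arrays in each group. A gene rose or fell where limma's adjusted p was under 0.05. The 75th percentile signal lay between 752.6 and 1117 on the 12 arrays, and 61.4 to 64.9% of probes were well above background on the untreated ones. Pearson correlations of levels over the tested genes, which are not independent of each other, were 0.981 to 0.995 within a genotype and 0.939 to 0.964 between genotypes. A first principal component with 73.4% of the variance parted the genotypes. The second, with 14.1%, set the pair of arrays numbered 3, at -34.7 and -48.8, apart from the others, which lay between 13.9 and 28.8.

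The targeted gene was read first. Ppp1r15a stood at 2.65, 2.62 and 3.36 on wild-type arrays 1, 2 and 3, and at -7.22, -8.30 and -5.75 on the ΔC arrays, none of them well above background. It was at least 486-fold lower in ΔC cells (limma adjusted p = 6.15e-05). The groups did not overlap, and every array matched its labelled genotype at this gene. Neither the deleted part of the gene nor the position of the probe is given, so the reading does not show which part of the transcript was missing.

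The third ΔC array differed from the other ΔC arrays at the Y-linked genes Ddx3y and Eif2s3y, though not at Uty. Ddx3y, a Y-linked RNA helicase gene, read 0.37, 1.15 and 0.27 in wild-type cells and -8.22, -8.30 and -2.08 in ΔC cells. Eif2s3y, the Y-linked copy of an eIF2 subunit gene, read 1.33, 2.74 and 1.66 against -5.80, -8.45 and -0.33. Both were well above background on ΔC array 3, while Ddx3y was not above it on ΔC arrays 1 and 2. The poly(I:C)-treated ΔC arrays repeated this, with Ddx3y at -7.35, -8.23 and -1.56. Uty, also Y-linked, read -3.64, -3.25 and -4.78 in untreated wild-type cells and -8.22, -8.40 and -7.83 in untreated ΔC cells. It was above background on all 3 of these wild-type arrays and on 0 of these ΔC arrays. Ppp1r15a on ΔC array 3 was at -5.75, below background. Among the 3051 autosomal genes that rose or fell, ΔC array 3 was the ΔC array nearest to the wild-type mean for 2022 (66.3%). Ddx3y, Eif2s3y and Uty also parted the genotypes, each lower on every untreated ΔC array than on any untreated wild-type array. On the X chromosome 34 of 520 genes rose and 179 fell. Of 14916 autosomal genes 1652 (11.1%) rose and 1399 (9.38%) fell. This sex-linked difference runs along with genotype and cannot be told apart from it. Its part in the results, and that of the difference at ΔC array 3, was not tested. Values without ΔC array 3 are given where they change a call.

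Resting ΔC cells differed from wild-type cells at 20.5% of the autosomal genes. Of 14916, 1652 (11.1%) rose and 1399 (9.38%) fell, with a median difference of -0.05. Of these, 1085 rose and 493 fell at least 2-fold, and 330 rose and 112 fell at least 8-fold. Of the genes that rose, 220 were not well above background on any wild-type array, and 63 that fell were not above it on any ΔC array. A gene enters the test by being well above background on all 3 arrays of any 1 group, so that a gene found in 1 genotype only had to differ. Such genes are given below as at least N-fold, the bright group's mean against the lowest signal that counts as well above background on each array of the dim group. Where 1 or 2 of the 3 arrays of the dim group were above background, the size of a difference rests partly on background readings. Among genes given below this was 1 array for Prxl2b, Hoxb9, Hoxc4, Hoxb8, Mark1, Dsp, Zfhx4, Tbx1, Hoxd13, Prg4, Smoc1, Alkal1, Dkk2, Cyp7b1, Hoxb5, Hoxc8, Dio3, Krt8, Dkk3, Gli2 and Cxcl3 and 2 for Hoxb13, Ptgis, H2-Ab1, Unc13b, Pitx1, Ppbp, Xdh, Hoxa2, Hoxd9, Npnt, Spry1 and Pmaip1.

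**Figure D1:**
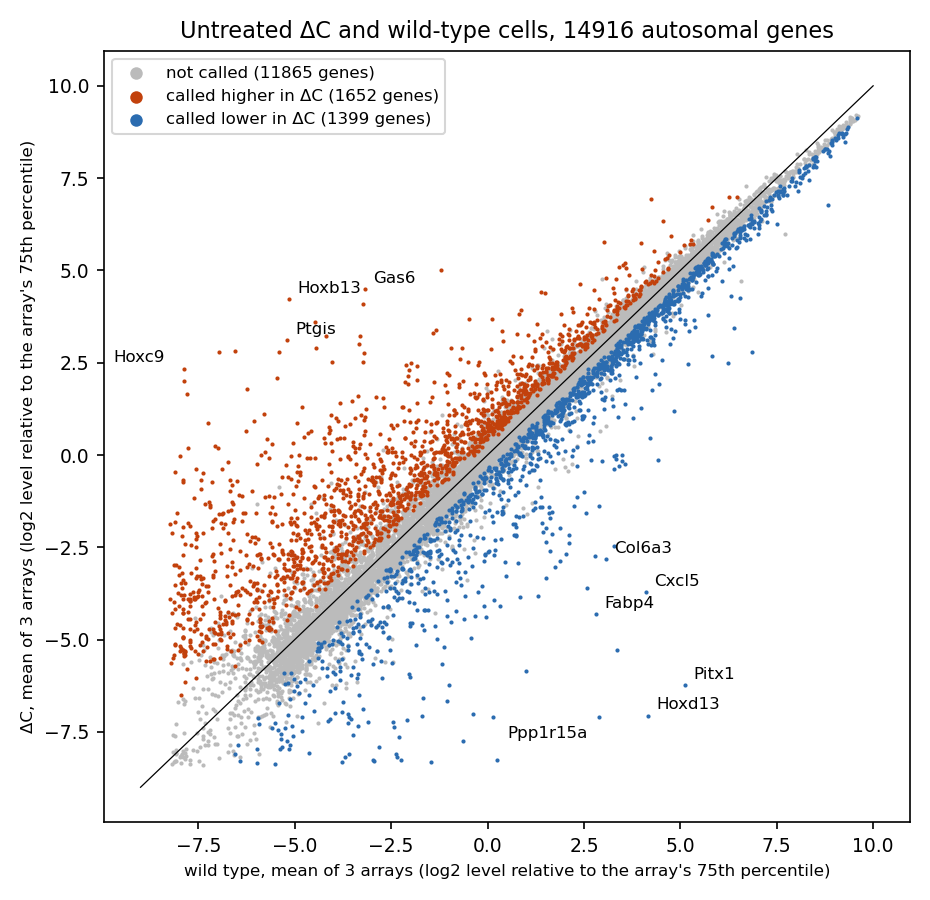
Mean log2 level relative to the 75th percentile of each array in wild-type (x axis) and ΔC cells (y axis), 3 arrays each, 1 point per autosomal gene; orange points rose, blue points fell, grey points did not pass the test, and the line marks equal levels. The 330 genes at least 8-fold higher in ΔC cells lie mostly at the left, where wild-type levels were low, and the brightest genes lie slightly below the line.

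The split between rises and falls depended on the scaling. Of the calls, 54.1% were rises, against 67.3% when arrays were centred on their median (1234 rose, 599 fell), 64% after quantile normalization (1868 and 1051) and 74.6% in the authors' table as deposited (730 and 248). In the tenth of genes with the highest levels, the median difference was -0.19, with 22 rises and 259 falls, and after quantile normalization it was 0.04. Some small falls of bright genes carry their value under quantile normalization beside them below. Where none is printed, a small fall may still depend on the scaling.

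Slide and scan day were entered as batches, but among the untreated arrays they largely run along with genotype. Slide 4 held untreated wild-type arrays 1 and 3, slide 1 untreated ΔC array 1 and slide 5 untreated ΔC array 3. Scan day 2 held untreated arrays of wild-type cells only, and scan day 3 of ΔC cells only. The blocked fits therefore lean on slide 2 or scan day 1 and on the treated arrays, and cannot fully part batch from genotype. Slide 2 held wild-type array 2 and ΔC array 2, and within it the 3051 called genes differed in the called direction, as they did within scan day 1, which held wild-type array 2 and ΔC arrays 1 and 2. These arrays also entered the calls, which largely fixes those signs, so they are given as a description and not as a test of the batches. Blocked by slide, 534 genes still rose and 330 fell, of which 518 and 290 were called without it. With scan day as a block 877 rose and 628 fell. Fewer genes were also called without ΔC array 1 (990 and 669), ΔC array 2 (1023 and 648) or wild-type array 1 (1140 and 789), and without the 4 arrays numbered 3 more were called (2713 and 2629). After the count of a gene list below, its rises and falls in these last fits, blocked by slide and without arrays 3, stand in brackets. Each list count in the main fit is to be read beside the shares over all autosomal genes, 11.1% that rose and 9.38% that fell. The lists were chosen with earlier results of these data known.

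The 20 largest rises with a signal in both genotypes were Prxl2b, Hoxb13, Hoxb9, Ptgis, H2-Ab1, Hoxc6, Hoxc4, Gas6, Pax1, Lsr, Hoxb7, Hoxb8, Nid1, Unc13b, Mark1, Dsp, Hoxb6, Dlk1, Zfhx4 and Tbx1. Their differences ran from 6.42 (Tbx1) to 9.74 (Prxl2b). Prxl2b, an enzyme that makes prostaglandin F, read -7.74, -8.23 and -4.92 in wild-type cells, where 1 of 3 arrays was above background, and 3.21, 3.17 and 1.95 in ΔC cells. The 20 largest falls included Pitx1, Hoxd13, Ppbp, Cxcl5, Prg4, Fabp4, Xdh, Slurp1, Col6a3, Smoc1, Lhx2, Alkal1, Ahrr, Dkk2, Cyp7b1, Ccbe1, Gatm, Gsta2 and Itgb7, from -11.35 (Pitx1) to -4.56 (Itgb7). HOX genes made up 7 of the 20 rises and 1 of the 20 falls. Among genes not detected in wild-type cells, the largest bounds belonged to Hoxc9 (at least 315-fold), Rpl39l, a ribosomal protein gene copy (at least 248-fold), and Hoxb2 (at least 194-fold). The call of Alkal1 was lost without wild-type array 1, 2 or 3 or ΔC array 1 or 2 (adjusted p = 0.0908 to 0.164). The call of Cyp7b1 was lost without wild-type array 1 or ΔC array 1 or 2 (adjusted p = 0.0626 to 0.0763). The call of Ccbe1 was lost without wild-type array 3 or ΔC array 1 or 2 (adjusted p = 0.0627 to 0.0841). Calls were lost for Nid1, Alkal1, Ahrr, Dkk2, Cyp7b1 and Ccbe1 with slide as a block (adjusted p = 0.0788 to 0.245).

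The genotype difference was also read in the 6 arrays of cells given 2.5 µg/ml poly(I:C) for 6 h. Their levels do not enter the untreated group means. Both comparisons came from the same limma fit, however, and shared the residual variance of each gene, the background filter and the probe choice. A gene with a low shared variance is favoured in both tests, so the overlap of calls below is not a separate re-measurement. With only the untreated arrays fitted, 1261 genes rose and 793 fell. Of the 3051 genes called in untreated cells, 2986 (97.9%) had the same sign with poly(I:C), against 76.9% of all autosomal genes. Of them 2010 (65.9%) were called there with the same sign, where 20.4% of all autosomal genes were called. The genotype difference itself changed with treatment, by the interaction term of the fit, for 2 of the 3051. Over all autosomal genes it passed for 3 (0.0201%). The 2 were Cxcl1, a neutrophil chemokine, and Gbp2b, an interferon-induced GTPase, named here after their values were seen. Whether untreated and treated arrays of the same number came from the same experiment is not settled. The labels name no other lines for the treated cells, so the treated arrays are not taken as independent cultures of new lines. No call remained for Gbp2b with slide as a block (adjusted p = 0.0835) and for Gbp2b with normexp background correction (adjusted p = 0.0779).

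**Figure D2:**
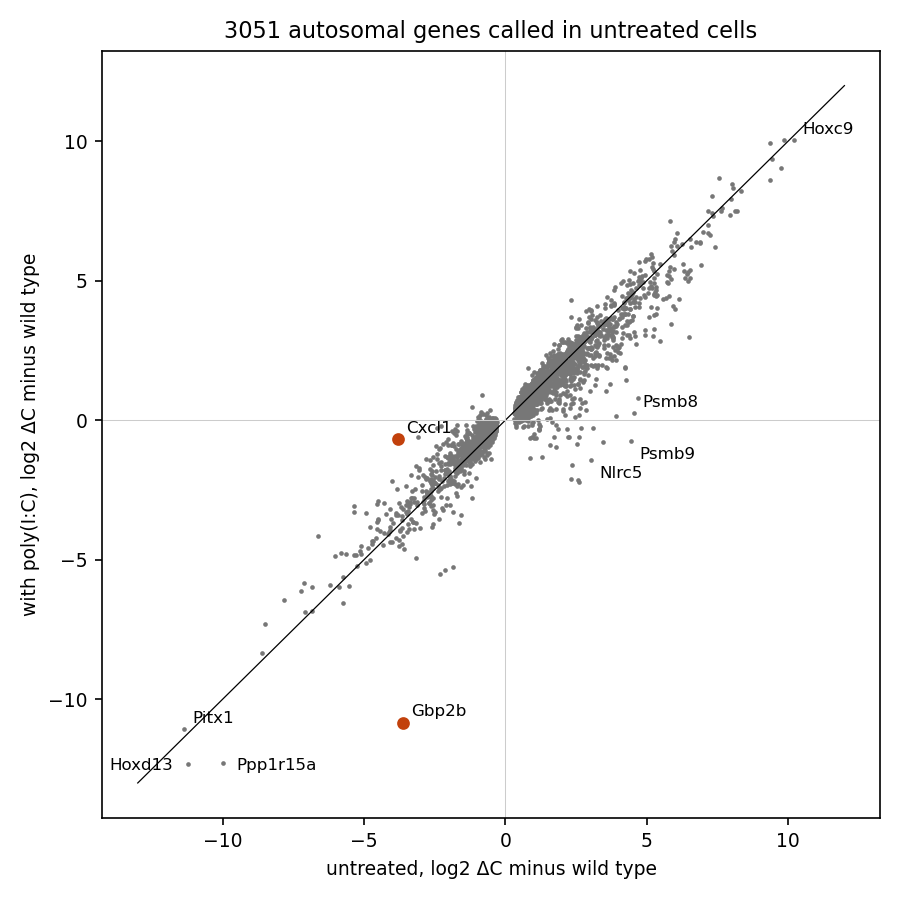
Difference between ΔC and wild-type cells (log2) without poly(I:C) on the x axis and with it on the y axis, 1 point per autosomal gene called in untreated cells; the line marks equal differences and orange points mark the 2 genes whose interaction term passed. Most points follow the line, among them Hoxc9, Pitx1 and Hoxd13, while Psmb8, Psmb9 and Nlrc5 were near 0 or below it with poly(I:C).

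HOX genes set the body position of a cell along the head-to-tail axis and along the limb. They lie in 4 clusters, and genes at one end of a cluster act near the head and those at the other end act near the tail or the tip of the limb. The 9 HOXB genes tested of 10 listed all rose in ΔC cells, 8 of 9 HOXC genes rose, and of 5 HOXD genes tested of 9 listed 4 fell. The HOXA cluster was split by position: Hoxa2, Hoxa3, Hoxa5 and Hoxa7 rose, Hoxa11 and Hoxa13 fell, and the other 5 did not pass the test. Median differences were 7.35 for HOXB and 7.96 for HOXC (5.93 with undetected members at their bound), and -7.1 for HOXD (-5.48 with bounds), beside -0.05 over all autosomal genes. With slide as a block 9 HOXB and 7 HOXC genes rose and 3 HOXD genes fell, and without the arrays numbered 3 the counts were 9, 8 and 4.

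The RefSeq table of promoters (GRCm38.p6, 250 bases before to 50 after each start) held entries for 3 of the 17 HOXB and HOXC genes that rose and for 4 of the 4 HOXD genes that fell. A promoter of each of 4 of these genes is printed to show the sequence at the start of single genes of these clusters, with each CG pair, the site of DNA methylation, in capitals.
Hoxb4 (chr11:96318017-96318316, + strand): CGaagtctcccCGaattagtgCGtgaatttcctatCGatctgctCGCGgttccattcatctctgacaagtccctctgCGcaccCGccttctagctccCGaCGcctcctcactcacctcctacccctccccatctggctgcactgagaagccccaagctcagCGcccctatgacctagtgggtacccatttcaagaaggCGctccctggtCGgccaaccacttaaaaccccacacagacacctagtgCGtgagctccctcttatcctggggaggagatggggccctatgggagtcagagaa
Hoxc4 (chr15:103034145-103034444, + strand): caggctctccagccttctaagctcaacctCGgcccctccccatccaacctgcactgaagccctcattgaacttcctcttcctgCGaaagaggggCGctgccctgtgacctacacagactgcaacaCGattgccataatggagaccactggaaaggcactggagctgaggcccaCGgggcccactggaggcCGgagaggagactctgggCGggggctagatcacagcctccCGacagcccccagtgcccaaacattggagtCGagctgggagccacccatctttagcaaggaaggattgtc
Hoxd10 (chr2:74691641-74691940, + strand): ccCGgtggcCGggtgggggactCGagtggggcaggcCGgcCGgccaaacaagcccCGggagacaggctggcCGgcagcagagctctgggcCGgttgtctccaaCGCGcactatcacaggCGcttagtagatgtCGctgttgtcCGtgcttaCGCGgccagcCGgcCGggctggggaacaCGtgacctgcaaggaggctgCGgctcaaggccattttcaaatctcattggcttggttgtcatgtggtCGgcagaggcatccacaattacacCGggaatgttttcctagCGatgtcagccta
Hoxd13 (chr2:74667975-74668274, + strand): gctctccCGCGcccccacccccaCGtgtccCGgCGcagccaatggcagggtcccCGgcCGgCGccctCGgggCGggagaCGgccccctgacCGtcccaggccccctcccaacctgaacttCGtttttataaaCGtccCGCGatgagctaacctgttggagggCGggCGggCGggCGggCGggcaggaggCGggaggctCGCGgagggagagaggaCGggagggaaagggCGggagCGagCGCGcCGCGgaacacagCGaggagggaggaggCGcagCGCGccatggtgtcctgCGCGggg
Hoxb4 and Hoxc4 hold 14 and 9 CG pairs and Hoxd10 and Hoxd13 hold 22 and 37, against a median of 7 over the 32851 promoters of the same length. The 5 promoters listed for the HOXD genes that fell ranged from 4 to 37, on both sides of that median. No methylation was measured.

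Genes of the HOXB cluster were high on every ΔC array. Hoxb9, a thoracic-level gene, read -6.11, -8.03 and -5.52 on the wild-type arrays, with 1 of 3 above background, and 2.84, 2.71 and 2.90 on the ΔC arrays (9.37 ± 0.62, limma adjusted p = 8.45e-06). Hoxb13, a tail-end gene, read -4.53, -4.52 and -6.37 against 4.67, 4.68 and 3.35 (9.37 ± 0.51). Hoxb6 read -3.79, -4.83 and -3.50 against 2.62, 2.67 and 2.31. The groups were far apart at each of these genes, and ΔC array 3 lay lower than the other ΔC arrays at Hoxb13 and Hoxb6 but not at Hoxb9. Hoxb7 (7.35), Hoxb8 (7.31), Hoxb5 (5.99) and Hoxb3 (1.91) also rose, and Hoxb2 and Hoxb4 were at least 194 and 113-fold higher.

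Genes of the HOXC cluster behaved alike. Hoxc6, a forelimb and thoracic gene, read -4.52, -4.64 and -4.26 in wild-type and 3.38, 3.47 and 3.91 in ΔC cells (8.06 ± 0.33). Hoxc9 was not above background on any wild-type array (-7.93, -7.95 and -7.72) and read 2.19, 2.30 and 2.54 in ΔC cells, with limma adjusted p = 1.68e-10. The 3 ΔC arrays lay close together at Hoxc9. Hoxc4 rose by 8.04, Hoxc12 by 1.22 ± 0.33, and Hoxc5, Hoxc10, Hoxc11 and Hoxc13 were at least 22, 25.9, 71.3 and 61-fold higher. Hoxc8 differed by 2.44 ± 0.94 and did not pass the test (adjusted p = 0.0928), passing with the replicate number as a block (adjusted p = 0.021). The call of Hoxc12 was lost without wild-type array 2 or ΔC array 1 or 2 (adjusted p = 0.0828 to 0.101). A call was missing for Hoxc12 with slide as a block (adjusted p = 0.148) and for Hoxc12 with normexp background correction (adjusted p = 0.237).

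The posterior HOXD genes and their HOXA counterparts, which pattern the far end of the limb, went the other way. Hoxd13, needed for digits, read 4.36, 4.35 and 3.78 in wild-type cells and -8.38, -7.19 and -5.61 in ΔC cells, where 1 of 3 arrays was above background (-11.22 ± 0.59, limma adjusted p = 2.12e-06). Hoxd10 and Hoxd11 were detected on no ΔC array and were at least 44.7 and 82.8-fold lower. Hoxa13 read -1.27, -2.30 and -3.30 in wild-type cells and was at least 14.2-fold lower, and Hoxa11 read 3.64, 3.60 and 2.63 against 0.34, 0.52 and -0.96. The middle HOXA genes overlapped between genotypes: Hoxa9 differed by -0.34 and Hoxa10 by -0.46. The HOX differences held with poly(I:C), where Hoxb9 differed by 8.63, Hoxc9 by 10.04 and Hoxd13 by -12.32.

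**Figure D3:**
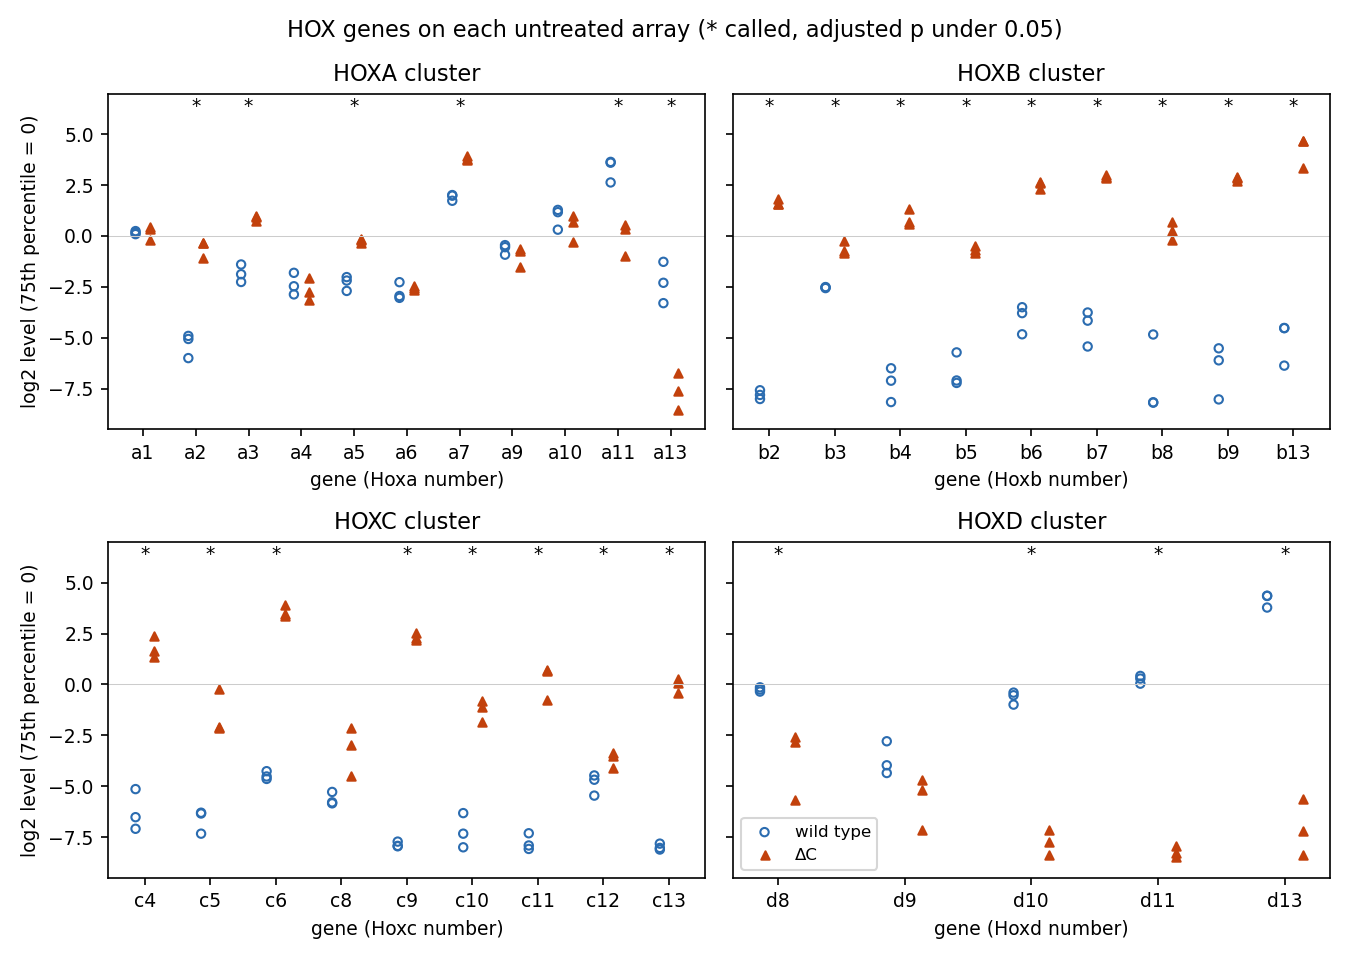
Log2 level relative to the 75th percentile of each array for every HOX gene tested, by cluster and gene number (x axis), on the 3 wild-type (open circles) and 3 ΔC arrays (triangles); stars mark genes that passed the test. Triangles lie above circles at all 9 HOXB genes and below them at all 5 HOXD genes, of which Hoxd9 did not pass; levels of different genes are not comparable.

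Other positional factors differed as well. Of 83 limb and body position factors tested, 21 rose and 18 fell (12 and 9 blocked by slide, 26 and 25 without arrays 3). Pitx1, which gives the hindlimb its identity, read 5.24, 5.39 and 4.73 on the wild-type arrays and -5.87, -8.43 and -4.40 on the ΔC arrays, 2 of them above background (-11.35 ± 0.84, limma adjusted p = 1.67e-05). It was the largest fall with a signal in both genotypes. Tbx4, another hindlimb factor, was detected on no ΔC array and was at least 8.87-fold lower. Lhx2, a factor of limb outgrowth, fell from 2.94, 2.99 and 2.41 to -2.80, -3.08 and -2.31, with ± 0.23 around a difference of -5.51. Calls did not hold for Tbx4 with slide as a block (adjusted p = 0.0552).

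Among the factors that rose, Pax1, Tbx1 and Alx1 are known from the trunk or head. The list was not sorted by body region. Pax1, a factor of the vertebral column, read -5.33, -5.87 and -5.20 in wild-type and 2.89, 2.85 and 0.54 in ΔC cells, with ΔC array 3 the lowest of its group. Tbx1, a pharyngeal T-box factor, rose by 6.42 ± 0.86, with 1 of 3 wild-type arrays above background. Alx1, a craniofacial homeobox factor, was at least 14.2-fold higher. Zfhx4, a large zinc finger homeobox gene, rose by 6.54. The groups did not overlap at any of these genes, which was a condition for ranking Pax1, Tbx1 and Zfhx4 among the largest rises. Calls ended for Alx1 with normexp background correction (adjusted p = 0.0935).

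Imprinted genes, which are read from the copy of 1 parent only and many of which control growth before birth, rose more often than they fell. Of 33 tested, 13 rose and 2 fell (6 and 2 blocked by slide, 13 and 3 without arrays 3), with a median of 0.15. In the main fit 45.5% of them were called, beside 20.5% of all autosomal genes. Dlk1, a growth and differentiation regulator of the Notch ligand family, read -3.96, -3.80 and -2.20 in wild-type and 3.29, 1.12 and 5.28 in ΔC cells. The ΔC arrays spread widely at Dlk1, with array 3 highest and array 2 lowest, and all 3 stood above the wild-type arrays (6.55 ± 1.20, limma adjusted p = 0.00415). Asb4 rose from -3.75, -3.11 and -2.87 to 2.71, 2.84 and 2.03, and Mest, expressed in embryonic mesoderm, from -1.91, -1.82 and -2.21 to 2.85, 2.90 and 1.75. These rises were more even among the ΔC arrays. Nnat (4.94), Cdkn1c, the cyclin-dependent kinase inhibitor p57 (4.19) and Plagl1, a growth-restraining zinc finger gene (3.57), also rose. Impact, a regulator of the eIF2α kinase GCN2, fell by 2.78, and Dio3, which inactivates thyroid hormone, by 1.71. The call of Dio3 was lost without wild-type array 2 or ΔC array 1 or 2 (adjusted p = 0.0531 to 0.067). No call was made for Plagl1 with slide as a block (adjusted p = 0.0791).

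Fibroblast markers were read next. Of 30 listed, 27 were tested, and 25 of these stood well above background on each of the 3 wild-type arrays and 25 on each of the 3 ΔC arrays. Members enter the test by being detected, and 16 of 18 skeletal muscle genes and 18 of 22 neural and glial markers were also detected on each wild-type array, so these counts do not tell cell types apart. Of the 27 fibroblast markers 1 rose and 4 fell (0 and 2 blocked by slide, 2 and 11 without arrays 3), and with array weights 12 fell. The share called in the main fit, 18.5%, was near the 20.5% over all autosomal genes. Their summed linear level, in units of the 75th percentile, was 1320 to 1510 on wild-type and 501 to 1000 on ΔC arrays. Such a sum, here and for the other lists below, is weighted toward its brightest members, such as S100a4. It does not show a change of the markers in general: the median difference of the list was -0.49, and 22 of the 27 were not called. Ly6a (Sca-1), a marker of fibroblast progenitors, read 5.01, 5.23 and 4.26 against 1.08, 1.32 and 1.17 (-3.64 ± 0.46), and S100a4, a calcium-binding fibroblast protein, 9.07, 8.96 and 8.45 against 6.56, 6.58 and 7.16 (-2.06). The groups stood apart at both. Pdgfrb, a growth factor receptor of mesenchymal cells, fell by 1.89, Vim, the intermediate filament vimentin, by 0.63, and Twist2, a mesenchymal transcription factor, rose by 0.65. Pdgfra differed by 0.05 (adjusted p = 0.967) and Thy1 by 1.37 (adjusted p = 0.506), and neither passed. The call of Pdgfrb was lost without wild-type array 1 or 2 or ΔC array 2 (adjusted p = 0.0505 to 0.0633). The call of Twist2 was lost without wild-type array 1 or 3 or ΔC array 1, 2 or 3 (adjusted p = 0.061 to 0.126). The test gave no call for S100a4, Pdgfrb, Vim and Twist2 with slide as a block (adjusted p = 0.061 to 0.197), for Vim and Twist2 with median scaling (adjusted p = 0.127 to 0.18), for Vim after quantile normalization (adjusted p = 0.113) and for Twist2 without the arrays numbered 3 (adjusted p = 0.0658).

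Contractile genes of myofibroblasts counted 3 rises and 0 falls among 32 (0 and 0 blocked by slide, 7 and 5 without arrays 3), the largest being Myl9, a myosin light chain (2.99 ± 0.92). Acta2, smooth muscle actin, read 2.46, 2.14 and 4.28 against 4.11, 4.36 and 5.85. Its difference of 1.82 missed the threshold (adjusted p = 0.072) and passed with the replicate number as a block (adjusted p = 0.000895). Cartilage and bone genes were mixed, with 3 rises and 5 falls among 27 (2 and 2 blocked by slide, 6 and 8 without arrays 3). Prg4, the joint lubricant lubricin, read -0.31, -0.50 and 1.20 in wild-type cells and -8.18, -8.21 and -4.94 in ΔC cells, where 1 of 3 arrays was above background. Col10a1, a collagen of growth plate cartilage, fell by 4.34, while Comp, a cartilage matrix protein, rose by 2.67, and Alpl, the bone alkaline phosphatase, was at least 6.03-fold higher. The call of Myl9 was lost without wild-type array 1 or 2 or ΔC array 1, 2 or 3 (adjusted p = 0.0705 to 0.134). Calls were lost for Myl9 with slide as a block (adjusted p = 0.0652).

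Among adipocyte genes 4 rose and 5 fell of 31 (4 and 4 blocked by slide, 8 and 7 without arrays 3). Fabp4, the fatty acid carrier of fat cells, read 2.99, 2.54 and 2.94 in wild-type and -4.81, -4.94 and -3.18 in ΔC cells (-7.13 ± 0.47, limma adjusted p = 8.62e-06). Angptl4, an inhibitor of lipoprotein lipase, fell by 4.29, and Cebpb and Ppargc1a, regulators of fat and mitochondrial programmes, by 1.33 and 2.13. In contrast Lpl, lipoprotein lipase itself, was detected on no wild-type array and was at least 13.4-fold higher, and Prdm16, a brown fat regulator, at least 45.2-fold higher. No call remained for Cebpb with slide as a block (adjusted p = 0.0511).

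Markers of other cell types were read as groups. Of 20 blood cell and macrophage markers, 1 rose and 5 fell (1 and 2 blocked by slide, 2 and 5 without arrays 3), with a summed level of 25.3 to 28.4 on wild-type and 17.1 to 18.2 on ΔC arrays. Csf1r, the macrophage growth factor receptor, fell by 1.19, and Itgam, an integrin of myeloid cells, differed by -0.84 and passed too, while Ptprc, the pan-leukocyte marker CD45, was well above background on all 6 arrays and differed by -0.39 without passing. The summed levels of endothelial and mural markers were 86.2 to 91.2 and 98.5 to 111, those of neural and glial markers 40.2 to 50.6 and 24.7 to 39.7, and those of skeletal muscle genes 6.99 to 9.13 and 11.1 to 12.4. The part of other cells in these values was not tested. A call was missing for Csf1r with slide as a block (adjusted p = 0.212) and for Itgam with the mean of a gene's probes (adjusted p = 0.0793).

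Epithelial markers were mixed, with 8 rises and 3 falls among 35 (4 and 2 blocked by slide, 10 and 7 without arrays 3) and a summed level of 62.7 to 76.3 on wild-type and 56.9 to 71.6 on ΔC arrays. Dsp, the desmosome protein desmoplakin, read -6.88, -7.14 and -4.78 against 0.63, 1.53 and -0.26, with 1 of 3 wild-type arrays above background. Epcam was detected on no wild-type array and was at least 8.01-fold higher, Cdh1, E-cadherin, at least 1.64-fold higher, and Spint1, a protease inhibitor of epithelia, rose by 3.86. The keratin gene Krt8 fell by 1.91, and Krt5 and Krt14, keratins of basal epithelium, were detected on all 6 arrays and did not pass, at -0.24 and -0.59. The call of Epcam was lost without wild-type array 1 or ΔC array 1 or 2 (adjusted p = 0.0633 to 0.0687). Calls did not hold for Spint1 with slide as a block (adjusted p = 0.0552), for Krt8 with scan day as a block (adjusted p = 0.077), for Epcam and Cdh1 with normexp background correction (adjusted p = 0.0705 to 0.55) and for Krt8 without the arrays numbered 3 (adjusted p = 0.0612).

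Matrix genes were read by their roles. Of 9 fibrillar collagens, which form the strong fibres of connective tissue, 0 rose and 3 fell (0 and 1 blocked by slide, 1 and 5 without arrays 3), with a median of -1.05. Col3a1 read 3.82, 3.39 and 3.26 on the wild-type arrays and 0.55, -1.58 and 0.56 on the ΔC arrays (-3.64 ± 0.65, limma adjusted p = 0.0037), with ΔC array 2 the lowest. Col5a3 fell by 2.22 and Col11a1 by 1.49. Col1a1, the main chain of type I collagen, read 7.88, 7.61 and 7.68 against 5.51, 5.18 and 7.25. ΔC array 3 lay nearest to the wild-type arrays there, and the difference of -1.74 ± 0.60 missed the threshold (adjusted p = 0.0661), passing with the replicate block (adjusted p = 0.023). Col1a2 differed by -1.05 (adjusted p = 0.628). The call of Col11a1 was lost without wild-type array 1 or 2 or ΔC array 1 or 2 (adjusted p = 0.0852 to 0.105). Calls ended for Col5a3 and Col11a1 with slide as a block (adjusted p = 0.0818 to 0.227).

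Of 17 other collagens 1 rose and 3 fell (0 and 4 blocked by slide, 1 and 4 without arrays 3). Col6a3, a chain of the microfibril-forming type VI collagen, read 2.87, 2.73 and 3.58 in wild-type and -2.27, -4.21 and -2.02 in ΔC cells (-5.89 ± 0.70). Col18a1, a basement membrane collagen, fell by 1.73, and Col7a1, the anchoring fibril collagen of skin, rose by 1.85. The call of Col7a1 was lost without ΔC array 1 or 2 (adjusted p = 0.052 to 0.0527). No call was made for Col7a1 with slide as a block (adjusted p = 0.177).

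Of 24 basement membrane genes 6 rose and 3 fell (2 and 2 blocked by slide, 9 and 4 without arrays 3), with a median of 0.28. Nid1 (nidogen-1), which links laminin to type IV collagen, read -4.66, -5.10 and 0.09 in wild-type and 4.06, 4.23 and 3.95 in ΔC cells. Wild-type array 3 lay between the other wild-type arrays and the ΔC arrays, and the groups did not overlap (7.31 ± 1.46, limma adjusted p = 0.00641). The related Nid2 rose from -3.54, -4.35 and -2.67 to 1.46, 0.67 and 2.24. Npnt, an integrin ligand, rose by 3.26, and Fras1, an epithelial basement membrane protein, was at least 7.54-fold higher. Smoc1, a secreted calcium-binding protein of basement membranes, fell from -1.47, -1.21 and -0.44 to -7.92, -7.09 and -4.95, and Lamb3, a laminin chain of epithelia, fell by 1.28. The test gave no call for Npnt with slide as a block (adjusted p = 0.186).

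Matricellular proteins, which modulate cell contact and growth factors rather than build fibres, counted 3 rises and 12 falls among 35 (3 and 5 blocked by slide, 4 and 13 without arrays 3). Ccn5 read 2.36, 2.71 and 0.58 against -1.59, -2.52 and -1.80 (-3.85 ± 0.55), Ccn3 fell by 2.78, and Spp1, osteopontin, by 2.49. Thbs2, thrombospondin-2, rose from -3.29, -3.87 and -2.46 to 0.76, -0.86 and 1.72, with ΔC array 2 the lowest of its group. Fn1, fibronectin, differed by -0.02 (adjusted p = 0.98) and changed sign under other scalings. Of 30 proteoglycan and hyaluronan genes 3 rose and 7 fell (0 and 2 blocked by slide, 5 and 11 without arrays 3), among them Gpc6, a glypican, which rose by 1.98, and Prg4, described above, which fell. The call of Thbs2 was lost without wild-type array 1 or 2 or ΔC array 1 (adjusted p = 0.0511 to 0.0579). Calls were lost for Spp1 and Gpc6 with slide as a block (adjusted p = 0.108 to 0.178) and for Thbs2 with scan day as a block (adjusted p = 0.0764).

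Elastic fibre genes counted 3 rises and 2 falls among 24 (2 and 1 blocked by slide, 4 and 4 without arrays 3). Mfap2, a microfibril protein, read -2.62, -3.26 and -2.19 in wild-type and 1.47, 0.98 and 1.44 in ΔC cells (3.99 ± 0.39), and Ltbp4, which anchors TGF-β, rose by 1.40. Of 30 genes of collagen modification and crosslinking 5 rose, among them P3h3 (1.41) and Loxl3 (1.28), and 2 fell, among them P4ha1, a prolyl hydroxylase subunit (-0.92) (3 and 0 blocked by slide, 7 and 8 without arrays 3). No call remained for P4ha1 with slide as a block (adjusted p = 0.124).

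Proteases and their inhibitors went both ways, with 8 rises and 9 falls among 45 (2 and 2 blocked by slide, 9 and 12 without arrays 3). The collagenase gene Mmp13 read -4.03, -3.17 and -2.11 in wild-type cells, was detected on no ΔC array, and was at least 7.79-fold lower. Adam8, a membrane-bound protease, fell by 2.25, and the secreted protease Htra1 from 6.62, 6.47 and 5.88 to 4.40, 4.65 and 3.89. Serpinf1, a secreted serpin that restrains vessel growth, rose by 3.34 ± 0.83. Integrins and adhesion receptors counted 9 rises and 4 falls among 39 (5 and 1 blocked by slide, 9 and 7 without arrays 3). Itgb7, a chain of leukocyte integrins, fell from 4.42, 4.68 and 4.17 to -0.65, -0.22 and 0.48. Itga11, a collagen-binding integrin of fibroblasts, rose from -4.15, -4.78 and -3.74 to 0.17, -0.55 and 1.37, and Cdh3, P-cadherin, rose by 4.76 ± 0.56, while Cdh2, N-cadherin, fell by 1.04. The call of Serpinf1 was lost without wild-type array 1 or 2 or ΔC array 1 (adjusted p = 0.0594 to 0.0677). A call was missing for Mmp13 and Cdh2 with slide as a block (adjusted p = 0.0711 to 0.0895) and for Serpinf1 with scan day as a block (adjusted p = 0.0883).

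**Figure D4:**
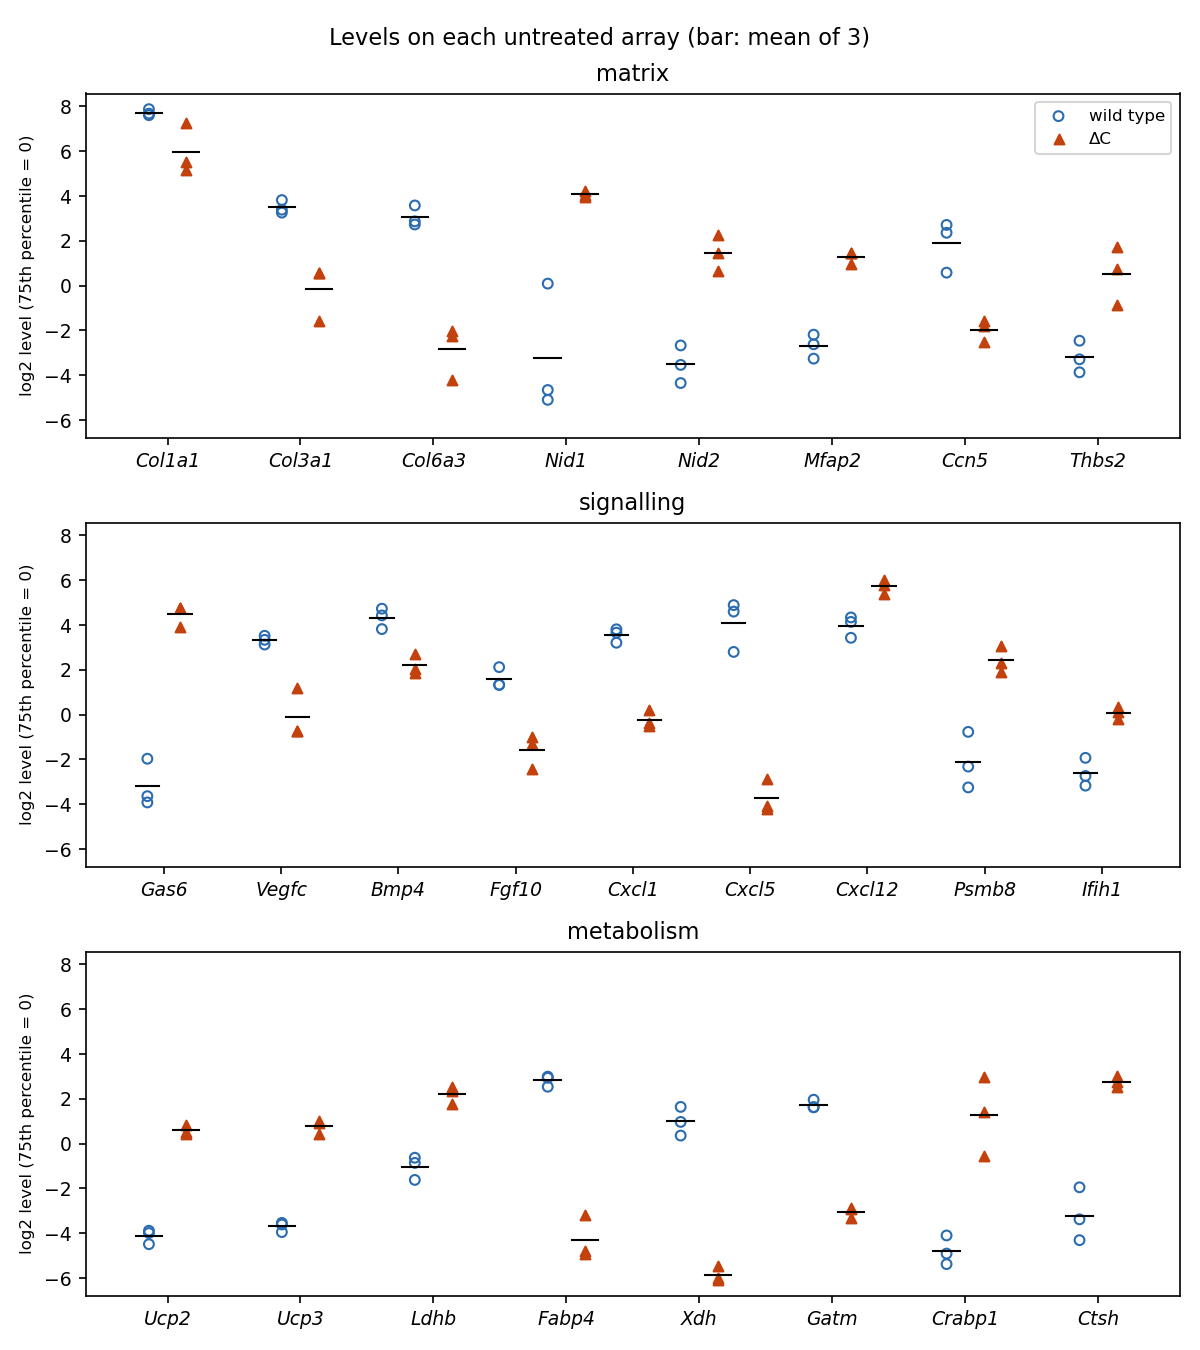
Log2 level relative to the 75th percentile of each array for 25 genes of matrix, signalling and metabolism on the 3 wild-type (open circles) and 3 ΔC arrays (triangles); bars are means of 3. All genes shown passed the test except Col1a1, and in all of them the groups did not overlap. Some were picked for that trait, so it is given as a description. Levels of different genes are not comparable.

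Signalling genes changed in ligands and receptors, among others. Of 46 genes of the TGF-β and BMP pathways, which control matrix and bone, 7 rose and 10 fell (1 and 2 blocked by slide, 7 and 17 without arrays 3). Among ligands, Bmp4 read 4.43, 4.73 and 3.82 in wild-type and 2.70, 2.03 and 1.87 in ΔC cells (-2.12 ± 0.26), and Gdf15, a stress-induced cytokine, fell by 3.58. The activin receptor Acvr2b rose by 2.17. Id4, a transcriptional target of BMP, rose by 2.65. The call of Acvr2b was lost without ΔC array 1 or 2 (adjusted p = 0.0617 to 0.062). Calls did not hold for Gdf15, Acvr2b and Id4 with slide as a block (adjusted p = 0.0598 to 0.152).

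Of 49 WNT genes 12 rose and 7 fell (1 and 3 blocked by slide, 12 and 11 without arrays 3). In the main fit 38.8% of them were called, beside 20.5% of all autosomal genes. The ligands Wnt4 and Wnt5a rose by 2.26 and 1.08, and Wnt7b fell by 2.64. Secreted inhibitors were split. Dkk3 rose from -5.29, -6.34 and -7.71, with 1 of 3 arrays above background, to -0.32, -2.79 and -0.11, while Dkk2 fell from -2.83, -3.03 and -0.37 to -8.35, -8.51 and -4.64. Rspo3, which strengthens the signal, fell by 2.53, as did Rnf43, the ubiquitin ligase that removes WNT receptors (-3.86). The receptor Fzd3 rose by 3.64 ± 0.41. Calls ended for Wnt4, Wnt5a, Dkk3 and Rspo3 with slide as a block (adjusted p = 0.052 to 0.0807).

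Hedgehog genes counted 5 rises and 2 falls among 19 (2 and 2 blocked by slide, 9 and 4 without arrays 3), with Gli2, a transcription factor of the pathway, rising by 3.91 and the target Foxf2 falling by 2.54. In the FGF pathway 7 rose and 1 fell of 25 (2 and 1 blocked by slide, 8 and 4 without arrays 3). Fgf10, the limb bud and lung ligand, was the one that fell (-3.17 ± 0.50). The feedback inhibitor Spry1 rose by 4.41, Spry4 was at least 3.82-fold higher, and Flrt3, an FGF receptor partner, read -3.96, -4.36 and -1.72 against 1.75, 1.26 and 1.81. All 3 ΔC arrays were above all 3 wild-type arrays at Spry1 and Flrt3. No call was made for Gli2 and Spry4 with slide as a block (adjusted p = 0.0502 to 0.075).

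Of 51 receptor tyrosine kinases and ligands 9 rose and 9 fell (3 and 1 blocked by slide, 11 and 17 without arrays 3). Gas6, the ligand of the AXL receptor family, read -3.92, -3.64 and -1.97 in wild-type and 4.78, 4.78 and 3.90 in ΔC cells (7.66 ± 0.66, limma adjusted p = 4.55e-05). Vegfc, the lymphatic growth factor, read 3.34, 3.13 and 3.52 against -0.75, -0.74 and 1.19 (-3.43). ΔC array 3 was the closest to the other genotype at both Gas6 and Vegfc. Epha4, an ephrin receptor, rose by 3.07, and Ereg, an EGF receptor ligand, fell by 2.05. Igfbp6, a binder of IGF2, rose by 2.24 and the receptor Igf1r by 0.80, in a list of 28 with 3 rises and 2 falls (2 and 1 blocked by slide, 5 and 4 without arrays 3). The test gave no call for Vegfc, Ereg and Igf1r with slide as a block (adjusted p = 0.0633 to 0.0947).

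Notch genes counted 5 rises and 2 falls among 21 (3 and 1 blocked by slide, 7 and 6 without arrays 3). The ligand Jag2 rose by 3.06 and the receptor Notch4 by 2.17, while Hey1, a target, fell by 1.54. YAP and TAZ targets counted 5 rises and 3 falls among 25 (1 and 2 blocked by slide, 7 and 3 without arrays 3), with the partner Tead2 rising by 1.17. Retinoid genes were even, 4 of 20 in each direction (2 and 1 blocked by slide, 5 and 9 without arrays 3). The retinoic acid binders changed in opposite directions: Crabp1 read -4.91, -5.38 and -4.10 against 1.42, -0.54 and 2.99, and Crabp2 read 6.13, 6.13 and 5.17 against 2.38, 2.52 and 3.14. The groups were apart at both, and the retinol carrier Rbp4 rose by 4.57. Calls were lost for Tead2 with slide as a block (adjusted p = 0.103).

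In prostaglandin metabolism 3 of 22 genes rose and 6 fell (1 and 3 blocked by slide, 5 and 8 without arrays 3). Ptgis, which makes prostacyclin, read -5.79, -5.45 and -4.40 in wild-type cells, 2 of 3 arrays above background, and 4.01, 3.69 and 1.66 in ΔC cells (8.34 ± 0.75, limma adjusted p = 5.63e-05). Hpgd, which inactivates prostaglandins, was detected on no ΔC array and was at least 21.2-fold lower. The prostaglandin carrier Slco2a1 fell by 1.92. Of 38 cyclic nucleotide genes 7 rose and 8 fell (2 and 3 blocked by slide, 9 and 14 without arrays 3): Pde3b, a phosphodiesterase, rose by 4.29, and Adcy1, an adenylate cyclase, was at least 9.05-fold lower. Immediate-early and MAP kinase feedback genes counted 5 rises and 9 falls among 39 (1 and 0 blocked by slide, 9 and 13 without arrays 3), among the falls Arc, a neuronal activity gene (-1.48). No call remained for Slco2a1 and Arc with slide as a block (adjusted p = 0.0672 to 0.0853).

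Cxcl5, Ppbp and Cxcl1, chemokines that attract neutrophils, fell in ΔC cells. In the list of 47 cytokines and chemokines 7 rose and 11 fell (3 and 7 blocked by slide, 10 and 18 without arrays 3), with a median of -0.4. In the main fit 38.3% of the list was called, beside 20.5% of all autosomal genes. Cxcl5 read 4.60, 4.89 and 2.80 on the wild-type and -4.23, -4.08 and -2.86 on the ΔC arrays (-7.82 ± 0.69, limma adjusted p = 5.12e-05). Ppbp read 3.55, 3.32 and 3.17 against -5.31, -6.57 and -3.93, with 2 of 3 ΔC arrays above background, and Cxcl1 read 3.66, 3.81 and 3.21 against -0.52, -0.39 and 0.19. Of the same kind, Cxcl3 differed by -2.86 and did not pass (adjusted p = 0.102), and Cxcl2 was not well above background on any untreated array. Each group was tight at Cxcl1, and the difference was -3.80 ± 0.22. With poly(I:C) the difference at Cxcl1 was -0.67 (adjusted p = 0.053), and the change of the difference was 3.13 ± 0.31 (adjusted p = 0.0176).

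Pf4, a neighbour of these chemokines in the genome, was at least 5.07-fold lower, and the monocyte chemokine Ccl9 fell by 3.36. Cxcl12, the homing chemokine of stromal cells, rose from 4.14, 4.34 and 3.43 to 6.03, 5.38 and 5.80, and Cxcl16 rose by 2.12. Il6 was detected on no wild-type array and was at least 2.38-fold higher. Of 60 cytokine and interferon receptors 6 rose and 9 fell (3 and 1 blocked by slide, 8 and 17 without arrays 3). Il1rl1, the receptor of interleukin-33, read 6.77, 7.07 and 6.71 against 2.68, 1.06 and 4.61, with ΔC array 3 nearest to the wild-type arrays. Tnfrsf11b, osteoprotegerin, fell by 3.49 and Epor, the erythropoietin receptor, rose by 2.52. The call of Tnfrsf11b was lost without ΔC array 1 (adjusted p = 0.0516). A call was missing for Cxcl12, Il1rl1 and Tnfrsf11b with slide as a block (adjusted p = 0.0754 to 0.0995) and for Il6 with normexp background correction (adjusted p = 0.661).

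Interferon-stimulated genes showed 10 rises and 1 fall among 71 (6 and 0 blocked by slide, 20 and 15 without arrays 3), a share of rises near that over all autosomal genes (11.1%). Several of those that rose serve antigen presentation. Psmb8, an immunoproteasome subunit, read -2.32, -3.25 and -0.77 in wild-type and 3.08, 2.31 and 1.89 in ΔC cells (4.54 ± 0.61, limma adjusted p = 0.000719), and its partner Psmb9 read -2.84, -3.09 and -2.74 against 2.19, 1.71 and 0.79. Nlrc5, the activator of MHC class I genes, rose by 3.04 and the class I gene H2-K1 by 1.80. The class II gene H2-Ab1, outside the list, read -5.77, -6.05 and -4.42, 2 of 3 above background, against 3.47, 3.26 and 1.63. Irf8, a transcription factor of the interferon system, was detected on no wild-type array and was at least 48-fold higher. With poly(I:C) the differences were 0.26 for Psmb8, -0.73 for Psmb9 and -1.41 for Nlrc5, none of which passed, and the change between conditions did not pass either (adjusted p = 0.245, 0.174 and 0.213). Calls did not hold for Nlrc5 and H2-K1 with slide as a block (adjusted p = 0.0646 to 0.0744) and for Nlrc5 with the mean of a gene's probes (adjusted p = 0.0514).

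Genes of double-stranded RNA sensing counted 7 rises and 1 fall among 31 (4 and 0 blocked by slide, 10 and 5 without arrays 3). The list is not of RNA sensors alone and also held Cgas and Sting1 of DNA sensing. Ifih1, the sensor MDA5, read -2.74, -3.17 and -1.93 in wild-type and 0.34, 0.10 and -0.20 in ΔC cells (2.69 ± 0.42, limma adjusted p = 0.00167). Cgas, the sensor of cytosolic DNA, rose from 0.97, 1.03 and 1.61 to 3.14, 3.19 and 2.98, and Sting1, the adaptor of cGAS, fell by 0.82. Gbp2b was detected on no untreated ΔC array (-7.52, -6.96 and -6.92 against -3.15, -3.04 and -4.40) and was at least 6.02-fold lower. With poly(I:C) its fitted difference was -10.84, and the change of the difference was -7.24 ± 0.89 (adjusted p = 0.0483). To show what stands at the start of one interferon-stimulated gene that rose, the Ifih1 promoter (GRCm38.p6, chr2:62646206-62646505, - strand) is printed with its repeat of TTTC with any 2 bases between (read on the opposite strand), the core of the interferon-stimulated response element, in capitals.
Ifih1: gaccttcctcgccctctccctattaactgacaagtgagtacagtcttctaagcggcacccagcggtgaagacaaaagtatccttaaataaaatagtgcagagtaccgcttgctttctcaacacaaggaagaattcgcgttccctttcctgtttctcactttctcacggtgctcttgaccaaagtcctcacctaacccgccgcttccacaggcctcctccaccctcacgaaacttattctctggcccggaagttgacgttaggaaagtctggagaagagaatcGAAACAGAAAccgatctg
The motif was searched on both strands, and at Ifih1 it begins at base 33 after the start. Of the 9 interferon-stimulated genes that rose and had an entry, 2 held it in their 10 promoters, Ifih1 among them. Of all 32851 promoters 3.44% held it, a share of promoters and not of genes. Interferon-stimulated genes that did not rise were not counted, so the values do not link the motif to the rise. Calls ended for Sting1 with slide as a block (adjusted p = 0.0877) and for Sting1 with median scaling (adjusted p = 0.0818).

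Metabolic genes changed in both directions. Of 32 glycolysis genes 4 rose and 5 fell (3 and 0 blocked by slide, 10 and 6 without arrays 3). Ldhb, the heart-type lactate dehydrogenase chain, read -0.63, -0.86 and -1.62 in wild-type and 2.33, 1.79 and 2.54 in ΔC cells (3.26 ± 0.35, limma adjusted p = 0.000172). The insulin-regulated glucose carrier Slc2a4 rose by 4.62 and Pfkfb4, which regulates glycolytic flux, by 2.24. Ldha fell by 0.61, Aldoa by 0.46 and Hk1 by 0.52. These 3 are bright genes, and after quantile normalization they differed by -0.24, -0.14 and -0.38 (adjusted p = 0.266, 0.379 and 0.078). Gapdh differed by -0.30 (adjusted p = 0.137). Of 25 hypoxia targets 2 rose and 5 fell (1 and 0 blocked by slide, 4 and 10 without arrays 3), with Car12, a carbonic anhydrase, rising by 3.54 ± 0.54. The call of Ldha was lost without wild-type array 1 or ΔC array 1 or 2 (adjusted p = 0.0523 to 0.0743). The call of Hk1 was lost without wild-type array 2 or ΔC array 1 (adjusted p = 0.0645 to 0.0749). No call was made for Ldha, Aldoa and Hk1 with slide as a block (adjusted p = 0.0641 to 0.156), for Ldha, Aldoa and Hk1 with median scaling (adjusted p = 0.201 to 0.31) and for Ldha, Aldoa and Hk1 after quantile normalization (adjusted p = 0.078 to 0.379).

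Ucp2 and Ucp3, mitochondrial carriers of the uncoupling protein family, rose in ΔC cells. In the list of 43 fatty acid oxidation genes 4 rose and 4 fell (3 and 0 blocked by slide, 7 and 10 without arrays 3). Ucp2 read -3.89, -4.49 and -3.99 in wild-type and 0.81, 0.54 and 0.44 in ΔC cells (4.72 ± 0.28), and Ucp3 read -3.95, -3.61 and -3.54 against 0.92, 1.00 and 0.45 (4.49 ± 0.24). Arrays within each group agreed within 1 log2 unit at both genes. In the list of 42 genes of fatty acid synthesis and storage 4 rose and 3 fell (3 and 2 blocked by slide, 10 and 7 without arrays 3). Acacb, the carboxylase that controls fatty acid entry into mitochondria, rose by 3.68, and Acsl6, an acyl-CoA synthetase, was at least 12.5-fold higher. Acaa2, a thiolase of fatty acid oxidation, fell by 1.01 and Fabp5, a fatty acid carrier, by 1.26. Of 40 cholesterol genes 6 rose and 4 fell (2 and 1 blocked by slide, 13 and 7 without arrays 3): Soat1, which esterifies cholesterol, rose by 1.91, while Cyp7b1, an oxysterol hydroxylase, fell from -1.28, -1.71 and -2.04 to -7.01, -8.56 and -4.19 and Npc1, a lysosomal exporter, fell by 0.87. The test gave no call for Acaa2 with slide as a block (adjusted p = 0.0841).

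Xdh, the enzyme that makes uric acid, fell from 0.97, 1.64 and 0.36 to -6.09, -5.45 and -6.00 (-6.83 ± 0.40, limma adjusted p = 4.12e-06), in a list of 42 pentose phosphate and nucleotide genes with 2 rises and 4 falls (0 and 2 blocked by slide, 7 and 7 without arrays 3). Gatm, the first enzyme of creatine synthesis, fell from 1.96, 1.62 and 1.63 to -2.93, -3.32 and -2.87 (-4.78 ± 0.16). The groups were far apart at both genes. Of 47 amino acid genes 6 rose and 3 fell (3 and 0 blocked by slide, 14 and 5 without arrays 3): Gldc, of glycine cleavage, rose by 2.86, Cbs, of transsulphuration, by 2.01, and the carrier Slc38a4 by 1.97, while the glycine carrier Slc6a9 fell by 0.74. Calls were lost for Cbs, Slc38a4 and Slc6a9 with slide as a block (adjusted p = 0.0556 to 0.0814).

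Glutathione and NRF2 target genes counted 9 rises and 12 falls among 57 (2 and 1 blocked by slide, 10 and 22 without arrays 3). Gsta2, a glutathione transferase, fell from 0.16, 2.15 and 0.24 to -4.90, -3.06 and -3.55. Gstt2, another transferase, rose by 2.44, and Mgst3 fell by 1.49. Lysosome and autophagy genes, which break down proteins and organelles, counted 4 rises and 18 falls among 48 (2 and 2 blocked by slide, 5 and 23 without arrays 3), with a median of -0.36. Ctsl, a lysosomal protease, read 7.04, 7.13 and 6.90 against 5.71, 6.02 and 6.21, Sqstm1, the autophagy receptor p62, fell by 1.06, Grn by 1.01 and Mitf, a regulator of lysosomal genes, by 1.29. With arrays centred on their median 8 of the 48 fell, and 14 after quantile normalization. Ctsh, another cathepsin, went the other way, from -3.38, -4.31 and -1.95 to 3.04, 2.73 and 2.52 (5.98 ± 0.60). No call remained for Mgst3, Ctsl, Sqstm1, Grn and Mitf with slide as a block (adjusted p = 0.0507 to 0.124).

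Genes of mitochondrial respiration and of ribosomes shifted by small amounts that depended on the scaling. Of 74 respiratory chain genes 0 rose and 10 fell (0 and 0 blocked by slide, 3 and 15 without arrays 3), with a median of -0.21, the largest being Ndufa2 (-0.75) and Atp5a1 (-0.71). With median scaling 0 of the 74 fell, and after quantile normalization 2 fell and 3 rose. Of 39 genes of the tricarboxylic acid cycle and pyruvate 1 rose and 6 fell (0 and 0 blocked by slide, 4 and 9 without arrays 3), and with median scaling 0 rose and 0 fell. Of 77 cytosolic ribosomal protein genes 1 rose and 28 fell (1 and 0 blocked by slide, 1 and 19 without arrays 3), with a median of -0.38, and 76 of them are in the tenth of genes with the highest levels. With median scaling 0 fell and after quantile normalization 2 fell, with a median of 0. The one that rose was Rpl39l, which read -7.96, -7.95 and -7.74, below background, in wild-type cells and 0.89, 0.82 and 4.29 in ΔC cells. A call was missing for Ndufa2 and Atp5a1 with slide as a block (adjusted p = 0.05 to 0.0692) and for Ndufa2 and Atp5a1 with median scaling (adjusted p = 0.0559 to 0.106).

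Genes that set the phosphorylation of eIF2α were read next. Of 20 genes of eIF2α kinases, phosphatase subunits and eIF2 factors 0 rose and 4 fell (0 and 2 blocked by slide, 1 and 4 without arrays 3): Ppp1r15a, Impact, Eif2b2 (-0.51) and Eif2s1 (-0.49). Ppp1r15b, the constitutive phosphatase subunit CReP, differed by 0.15 (adjusted p = 0.489). The kinase genes Eif2ak1, Eif2ak2, Eif2ak3 and Eif2ak4 differed by 0.03, 0.79, 0.07 and 0.15 and did not pass (adjusted p from 0.242 to 0.87). The call of Eif2s1 was lost without wild-type array 1, 2 or 3 or ΔC array 1 or 2 (adjusted p = 0.0532 to 0.164). Calls did not hold for Eif2b2 and Eif2s1 with slide as a block (adjusted p = 0.16 to 0.224), for Eif2b2 and Eif2s1 with median scaling (adjusted p = 0.255 to 0.256) and for Eif2s1 after quantile normalization (adjusted p = 0.119).

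Targets of ATF4 and CHOP, the transcription factors induced by eIF2α phosphorylation, counted 1 rise and 10 falls among 48 (0 and 0 blocked by slide, 9 and 18 without arrays 3), with a median of -0.21. The share called in the main fit, 22.9%, was near the 20.5% over all autosomal genes. Atf4 read 7.88, 7.89 and 7.99 against 7.48, 7.62 and 7.73 (-0.31 ± 0.12, limma adjusted p = 0.0847) and changed sign after quantile normalization (0.03). Ddit3, which encodes CHOP, fell from 1.55, 1.19 and 1.73 to 0.10, 0.21 and 0.92 (-1.08 ± 0.24, adjusted p = 0.0103). Gdf15 read -0.95, -1.64 and -0.25 against -5.10, -5.24 and -3.26, and Ddit4, an inhibitor of mTORC1, fell by 1.88. The groups did not overlap at Ddit3 and Gdf15. Of 37 chaperones of the endoplasmic reticulum 1 rose and 6 fell (0 and 0 blocked by slide, 2 and 12 without arrays 3), with 1 fall after quantile normalization and 0 with median scaling, and Hspa5, the chaperone BiP, differed by -0.11 (adjusted p = 0.531). Of 24 cytosolic heat shock genes only Hspb1, a small heat shock protein, rose, from 3.91, 3.97 and 4.83 to 6.98, 7.20 and 6.60, and 0 fell. Calls ended for Ddit3 and Ddit4 with slide as a block (adjusted p = 0.133 to 0.207).

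Few cell cycle genes passed the test in the main fit. There 8.45% of the cell cycle list and 30.2% of the p53 and senescence list were called, beside 20.5% of all autosomal genes. Of 71 cell cycle and replication genes 1 rose and 5 fell (0 and 1 blocked by slide, 4 and 18 without arrays 3). Ccnd2, cyclin D2, fell by 1.78 and Rrm2, a ribonucleotide reductase subunit, by 0.66, and Mki67, a proliferation marker, differed by 0.25 (adjusted p = 0.531). Of 43 p53 target and senescence genes 8 rose and 5 fell (3 and 0 blocked by slide, 13 and 12 without arrays 3). Pmaip1, the death gene Noxa, read -5.34, -6.26 and -2.64 against 0.36, 0.56 and 0.54, and Perp rose by 3.02, while Cdkn2b, the inhibitor p15, fell by 1.15. The main p53 target Cdkn1a differed by 0.25 (adjusted p = 0.602), Cdkn2a by -0.44 (0.258) and Trp53 by -0.18 (0.523), and none passed. No call was made for Rrm2 and Cdkn2b with slide as a block (adjusted p = 0.0673 to 0.124) and for Rrm2 with median scaling (adjusted p = 0.171).

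**Figure D5:**
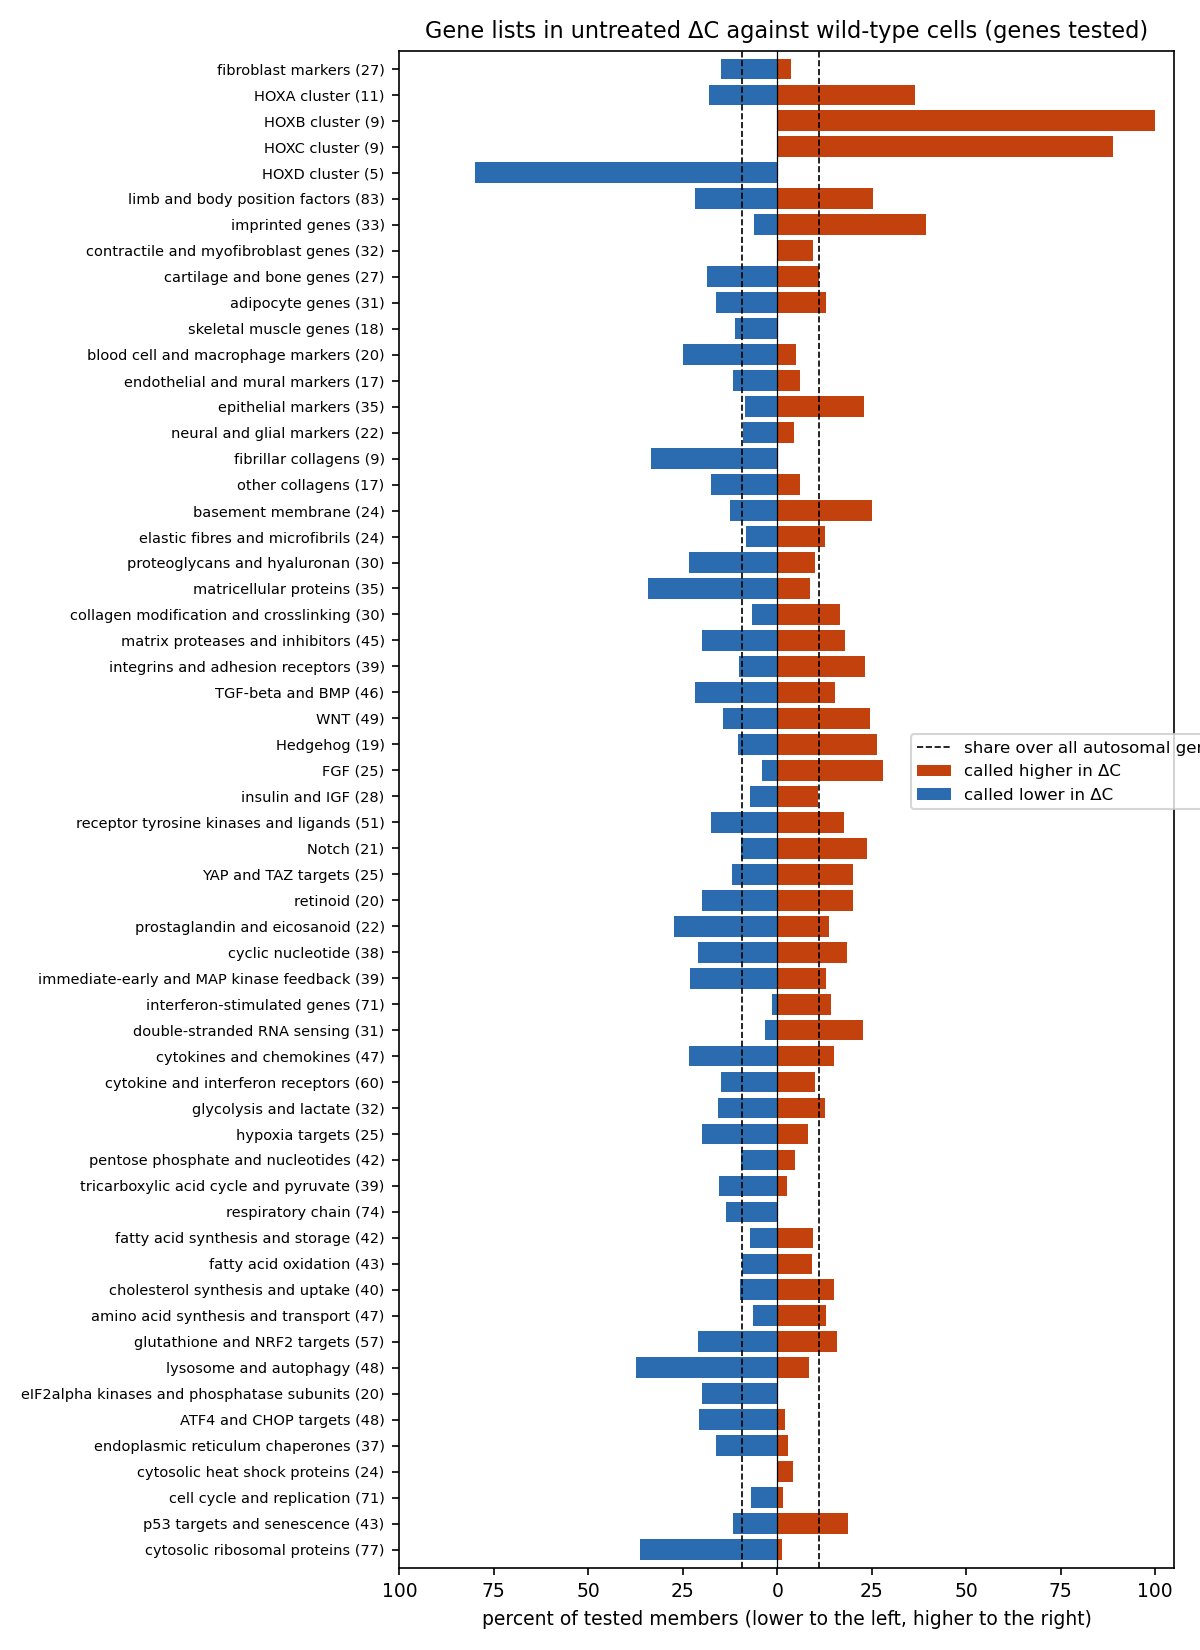
Percent of tested members of each gene list that passed the test and were higher (orange, to the right) or lower (blue, to the left) in untreated ΔC cells, with the number tested in parentheses; dashed lines mark the shares over all autosomal genes, 11.1% higher and 9.38% lower. The HOXB and HOXC bars reach 100% and 88.9% to the right and the HOXD bar 80% to the left, while the other lists stay under 40% on either side.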

How the data were processed

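The 12 arrays were Agilent single-colour mouse arrays read by Feature Extraction 10.7.3.1, per the file headers. The deposited scanner files hold processed intensity, which per the file headers the software had corrected for background and for trends over the slide, setting low values to small positive numbers. The authors' deposited table holds log2 values that share 1 distribution over all columns. The submitters' processing notes name limma for it, without a version, and further steps are not given in the sources used here. Its column for ΔC poly(I:C) 1 matched another array better than its own scanner file (r = 0.9743 against 0.9488), so it served only as an alternative.

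Here log2 of the processed intensity was taken minus the 75th percentile of its array. Of 55681 probes 27235 had a gene symbol, and 107 with outlier flags were left out. The brightest probe stood for its gene over the 12 arrays. A gene was tested if all 3 arrays of any 1 of the 4 groups read it well above background. The fit used limma 3.58.1 (R 4.3.3), with 1 mean per group over the 12 arrays (8 residual degrees of freedom) and Benjamini-Hochberg adjustment over all 15445 genes, two-sided, called at an adjusted p under 0.05. The steps were tested on simulated data. Precision is limited by the 3 arrays per group, by slide and scan day and, for dim genes, by background signal. A bound takes, on each dim array, the higher of the lowest well-above-background signal and the probe's own. Arrays of the same number deviated together from their group means (r = 0.119, 0.249 and 0.281 over genes). Wild-type array 2 and ΔC array 1 did so too (r = 0.195), while the other unlike pairs lay between -0.286 and -0.00759. The design text calls the repeats separate experiments, but these values do not settle whether the numbers pair the arrays. The main fit leaves the number out, and a block by it is given as an alternative (2026 rises and 1930 falls). In 6 of 3993 genes with several probes, probes were called in opposite directions.

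The members of the 58 gene lists were chosen with earlier results of these data known. They hold 2099 autosomal genes, of which 1877 were tested, and between 0 and 16 members of a list were not. The genes named are the 20 largest rises and falls, the 10 largest bounds in each direction, the 4 largest called changes each way in a list and a fixed set of genes of the integrated stress response, matrix, growth and housekeeping, as far as space allowed. Named after their values were seen were Ccl9, Cxcl2, Cxcl3, Ddx3y, Eif2s3y, Gbp2b, H2-K1, Hoxa9, Hoxa10, Hoxb3, Hoxb5, Hoxc5, Hoxc8, Hoxc10, Hoxc12, Hoxd9, Krt5, Krt14, Plagl1, Ptprc, Uty, Wnt4 and Wnt5a. Members whose call was lost without 1 array are counted but were mostly not named. Promoters came from RefSeq (GRCm38.p6) and were matched by symbol. Alternatives covered scaling, background, dim probes, probe choice, the authors' table, arrays fitted, blocks by replicate number, slide and scan day, array weights, variance priors and single arrays. Leaving out the arrays numbered 3 was chosen after seeing the data. Some genes that the rule names are not reported here.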

Additional observations from a re-analysis of the deposited data

Results flagged for a closer look

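The genotype difference itself changed with poly(I:C), by the interaction term of the limma fit, at 2 genes named above. At Cxcl1 the difference between ΔC and wild-type cells with poly(I:C) minus that without was 3.13 ± 0.31 (log2, limma adjusted p = 0.0176), from -3.80 without treatment and -0.67 with it. At Gbp2b the same quantity was -7.24 ± 0.89 (limma adjusted p = 0.0483), and since Gbp2b was not above background on any untreated ΔC array this size rests on background readings.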

How the results depend on the processing

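Of 205 named genes that were called, 112 kept their call and direction in all 21 alternatives, 93 lost the call in at least 1 and 0 reversed. Uty was not followed in the alternatives. The replicate block gave 2026 rises and 1930 falls, of which 1627 and 1361 were called without it; it added calls for Acta2, Col1a1, Eif2s3y and Hoxc8 and changed no other call of a named gene. The counts moved most with slide as a block (534 rose, 330 fell), scan day as a block (877 and 628), the authors' table as deposited (730 and 248), array weights (3497 and 3575) and without the arrays numbered 3 (2713 and 2629, chosen after seeing the data). Falls also moved with median scaling (599) and with only the untreated arrays fitted (793). Leaving out 1 array left between 990 and 1880 rises and between 648 and 1700 falls. Normexp gave 1475 rises and 1640 falls, and the authors' table without its mismatched column gave 1754 and 1028. The cause was not tested, apart from the fewer arrays in the last fits.

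Of all 3051 called genes, direction changed at 17 with normexp, 9 when a gene's probes were averaged and 1 each after quantile normalization and in both forms of the authors' table. Among the genes named here it changed only where the test was not passed. After quantile normalization and in both forms of the authors' table Atf4 was at 0.03, Gapdh at 0.07, Hspa5 at 0.16, Fn1 at 0.24 and Cxcl2, below background on the untreated arrays, at 0.04. Fn1 was at 0.05 with median scaling and 0.09 with slide as a block, and above 0 without wild-type array 1, wild-type array 3 or ΔC array 2. Single omissions gave -0.37 to 0.36 at Fn1, -2.32 to 0.16 at Col1a2 (positive without ΔC array 2), -0.03 to 0.10 at Eif2ak1, -0.21 to 0.32 at Eif2ak3, -0.53 to 0.69 at Pdgfra, -0.12 to 2.33 at Thy1 and -0.37 to 0.00 at Trp53. Eif2ak1 was at -0.03 with slide as a block and without wild-type array 1, and at -0.07 with scan day as a block. Eif2ak3 was at -0.11 with array weights, -0.21 without wild-type array 3 and -0.12 without the arrays numbered 3. Krt5 was at 0.07 with slide as a block and 0.03 without wild-type array 3. Pdgfra was at -0.44 with slide as a block, -0.55 with scan day as a block, -0.68 with array weights, -0.53 and -0.02 without ΔC arrays 1 and 3 and -0.05 without the arrays numbered 3. Thy1 was at -0.12 without ΔC array 3, and Trp53 at 0.00 without wild-type array 3 and 0.01 without the arrays numbered 3. Signal over background limits the genes given as bounds.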
